A study of Mus musculus with 32 samples.

Results

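The 9 genes described here, En1, En2, Pax2, Pax5, Pax8, Otx2, Gbx2, Lmx1a and Lmx1b, encode transcription factors of the midbrain and of the isthmus, the constriction where the midbrain meets the hindbrain. They were chosen by name, but with earlier results of these data known, so counts of members called are no unbiased test. All 9 were found among the 48576 gene identifiers of the expression tables. RNA from the forebrain (Fb) and midbrain (Mb) of mouse embryos at E9.5 was sequenced in 32 libraries, 16 per tissue, with 6 wild-type (WT), 4 TKO_Ex, 3 DKO_Ex and 3 DKO_CD libraries in each. All embryos were of the B6C3F1 strain, a hybrid of C57BL/6 and C3H mice. WT embryos came from WT parents and carried no mutated cadherin allele. TKO_Ex embryos lacked Cdh6, Cdh8 and Cdh11, 3 type II cadherins (cell adhesion molecules), and were exencephalic, with an open cranial neural tube. DKO_Ex embryos were exencephalic double knockouts of Cdh8 and Cdh11. DKO_CD embryos, named for a cranial defect, were not exencephalic and had an elongated midbrain. The titles name only the genes knocked out. Double knockouts of Cdh6 and Cdh8 were taken here as DKO_CD, and those of Cdh8 and Cdh11 as DKO_Ex. The titles state no exencephaly or cranial defect, and the study describes both double knockouts as lacking Cdh8 and Cdh11. The match of phenotype to title is therefore an assignment made here. For all 12 double knockout libraries the column heading and the sample record name different groups, and groups here follow the headings. If the records were right instead, DKO_Ex and DKO_CD would change places in every value below, so which of the double knockouts was exencephalic cannot be told from the values. The mutants came from parents heterozygous for all 3 genes, the alleles were small deletions made with CRISPR/Cas9 in the exons that hold the start codons, and genotypes were read by PCR from the yolk sac. The comparisons asked whether the transcription factors that give the midbrain and isthmus their identity were present in each tissue as labelled, and whether their levels moved with the loss of the cadherins.

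In the early brain, Otx2 marks the forebrain and midbrain and Gbx2 the anterior hindbrain, each repressing the other, and the isthmic organizer forms where they meet. This organizer secretes Fgf8 and lies beside a band of Wnt1. En1, En2, Pax2, Pax5 and Pax8 are expressed around it and maintain it together with these signals, while Lmx1b acts upstream of Wnt1 and Lmx1a marks the roof plate and the floor plate.

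En1 (ENSMUSG00000058665, chr1:120602418-120607992 on the plus strand of GRCm38) and En2 (ENSMUSG00000039095, chr5:28165694-28172166, plus strand) encode the Engrailed homeodomain repressors. Pax2 (ENSMUSG00000004231, chr19:44756045-44837871, plus strand), Pax5 (ENSMUSG00000014030, chr4:44524757-44710487, minus strand) and Pax8 (ENSMUSG00000026976, chr2:24420560-24475599, minus strand) encode paired-domain factors of 1 subfamily. Otx2 (ENSMUSG00000021848, chr14:48657677-48673819, minus strand) and Gbx2 (ENSMUSG00000034486, chr1:89927956-89931179, minus strand) encode the 2 opposed homeodomain proteins. Lmx1a (ENSMUSG00000026686, chr1:167689237-167848741, plus strand) and Lmx1b (ENSMUSG00000038765, chr2:33560965-33640511, minus strand) encode LIM-homeodomain proteins. In the annotation, a gene on the opposite strand overlaps each of them except En1 and Lmx1a. The libraries were directional and were aligned with that setting, which separates the strands at alignment.

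Stretches upstream of RefSeq start sites (GRCm38.p6) are shown for En1 and Pax5, whose levels moved together over the libraries, and for Gbx2 and Otx2, the opposed pair. Each holds the bases before the start that lie in no annotated exon of the gene, written 5′ to 3′ on the strand of the gene, with motif matches in capitals.
En1, chr1:120602237-120602417, plus strand: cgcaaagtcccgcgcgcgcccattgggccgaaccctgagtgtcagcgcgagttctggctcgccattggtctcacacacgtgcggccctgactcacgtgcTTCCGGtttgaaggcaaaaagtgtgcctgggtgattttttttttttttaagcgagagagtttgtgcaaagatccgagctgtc
Pax5, chr4:44710695-44710944, minus strand: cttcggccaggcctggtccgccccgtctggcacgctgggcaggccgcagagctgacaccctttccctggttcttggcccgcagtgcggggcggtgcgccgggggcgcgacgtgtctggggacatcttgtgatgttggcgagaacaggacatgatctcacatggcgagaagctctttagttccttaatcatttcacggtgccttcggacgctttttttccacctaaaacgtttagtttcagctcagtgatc
Gbx2, chr1:89931180-89931426, minus strand: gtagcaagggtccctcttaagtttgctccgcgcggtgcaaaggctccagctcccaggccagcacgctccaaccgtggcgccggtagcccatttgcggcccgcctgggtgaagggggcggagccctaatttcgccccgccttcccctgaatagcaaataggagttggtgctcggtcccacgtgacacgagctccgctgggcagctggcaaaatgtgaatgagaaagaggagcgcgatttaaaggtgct
Otx2, chr14:48667645-48667894, minus strand: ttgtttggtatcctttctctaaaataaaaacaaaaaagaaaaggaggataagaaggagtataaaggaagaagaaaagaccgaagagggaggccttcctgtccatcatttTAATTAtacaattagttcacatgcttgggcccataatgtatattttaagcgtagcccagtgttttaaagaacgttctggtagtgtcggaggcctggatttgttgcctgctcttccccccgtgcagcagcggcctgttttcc
The motifs searched on both strands were TAATTA (a homeodomain core), TAATCC (bound by Otx proteins), CTTTGAT (Tcf/Lef) and CCGGAA (Ets). No match overlapped another. RefSeq starts were given for 8 of the 9 members, 13 starts in all. In the 250 bases before these starts, TAATTA was found at 2 starts, both of Otx2, against 4.84% of all 32851 starts. CCGGAA was found at 2 starts, 1 of En1 and 1 of Pax2, against 12% of all starts. TAATCC was found at 1 start, of Otx2 (6.25% of all), and CTTTGAT at none (3.21% of all). These matches describe the letters only.

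Values are FPKM, fragments scaled to transcript length and to library size, so that levels can be compared between genes. Differences were taken between means of log2(FPKM + 1), a scale on which the changes of genes near 0 come out too small. A gene was called when its adjusted p (limma, Benjamini-Hochberg over all genes tested) was under 0.05. The depth behind the values was estimated from the smallest steps between low values at 1.95 to 3.24 M fragments per library (median 2.61), so that members near 1 FPKM rest on few fragments. Cdh6 was at 0.345 to 0.388 FPKM in 3 of the 4 TKO_Ex Mb libraries but at 3.10 in the library labelled TKO_Ex Mb replicate 3, within the 1.04 to 3.55 of WT Mb. In Fb it was at 3.74 in the library labelled TKO_Ex replicate 3 and at 0.572 to 1.84 in the other 3. In DKO_CD Mb, Cdh6 was at 1.76, 2.11 and 1.29 and in DKO_Ex Mb at 3.12, 2.47 and 1.86, all within the WT Mb range. Cdh8 and Cdh11 did not pass the threshold between any mutant and WT in either tissue, and the small deletions need not lower their RNA. Cdh6 in TKO_Ex Mb did not pass it either (−0.90, limma adjusted p = 0.547). Mean Cdh8 in Mb was 1.49 FPKM in TKO_Ex, 1.93 in DKO_Ex and 1.24 in DKO_CD, against 4.93 in WT (1.14 to 10.1). In Fb the Cdh8 means were 1.62, 0.583 and 0.958 in the same order, against 1.46 in WT. WT Mb replicate 5 was the lowest WT Mb library in 7 of the 9 members. Dixon's test, run on FPKM, set it apart in none. That test was not run on log2(FPKM + 1), the scale of the differences. On that scale En1 was at 2.19 in it and at 5.04 to 5.91 in the other WT Mb libraries. Pax5 was at 2.29 in it and at 4.1 to 4.75 in the others. Values without it are given where it moves a result. It was singled out for its low values in these same members. Larger differences and smaller p-values without it follow in part from that choice and are no separate support.

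In WT embryos, En1, En2, Pax5, Pax8, Gbx2 and Lmx1b were higher in Mb than in Fb, whereas Pax2, Otx2 and Lmx1a did not pass the threshold. The call was made for 6 of 9 members, all of them higher, against 8.26% of the 13344 genes tested (4.66% called higher). The median difference of the members was 2.01, against 0.00 over all genes tested. Bulk tissue cannot tell fewer cells that express a gene from less RNA per cell. Nothing in the labels says that the pieces of 1 group came from separate litters, so the p-values measure the spread between these samples.

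The Engrailed genes differed most between the tissues. En1 in WT Mb replicates 1 to 6 was at 54.6, 42.2, 32.0, 59.0, 3.57 and 41.3 FPKM, and in WT Fb it was at 0.936, 0.00, 0.315, 0.881, 0.181 and 0.145. Every Mb library lay above every Fb library, and replicate 5 was the low one in Mb. The difference was 4.51 ± 0.52 (SE, n = 6 and 6, limma adjusted p = 7.44e-05), and 5.07 ± 0.21 (limma adjusted p = 1.54e-08) without WT Mb replicate 5. En2 in WT Mb was at 61.8, 54.9, 36.6, 74.7, 8.35 and 47.7 FPKM in the same order. In WT Fb it was listed at 0 in 3 libraries and was at most 0.52 in the others, a value worth about 4 fragments. Its groups did not overlap either, and the difference of 5.20 ± 0.41 (limma adjusted p = 1.98e-06) became 5.62 ± 0.18 without WT Mb replicate 5. Non-overlap with Mb higher was seen for 4 of the 9 members and for 3.36% of the genes tested.

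Of the Pax genes, Pax5 and Pax8 were higher in WT Mb and Pax2 was not. Pax5 in WT Mb replicates 1 to 6 was at 26.0, 16.1, 16.1, 23.4, 3.90 and 19.1 FPKM, and between 0.616 and 2.04 in WT Fb (median 1.32). All Mb libraries were above all Fb libraries, by 2.84 ± 0.35 (limma adjusted p = 0.000141), or 3.19 ± 0.20 without replicate 5. Pax8 was at 16.3, 5.06, 5.24, 18.2, 0.319 and 5.05 in WT Mb and between 0.00 and 1.70 in WT Fb (median 0.535). Replicates 1 and 4 were high, and replicate 5, on about 3 fragments, lay within the Fb range. The difference in Pax8 was 2.12 ± 0.54 (limma adjusted p = 0.0272). It was 2.60 ± 0.38 (limma adjusted p = 0.000892) without WT Mb replicate 5. The Pax8 call was lost with no filter on low values (limma adjusted p = 0.0539) and on leaving out WT Fb replicate 2, 3 or 6 or WT Mb replicate 3 or 4 (limma adjusted p = 0.0507 to 0.0613). Pax2, the earliest of the 3 in development, was at 3.81, 1.99, 1.24, 5.5, 0.258 and 3.0 in WT Mb and between 2.33 and 4.18 in WT Fb (median 3.23). The groups overlapped, and the difference was −0.35 (95% confidence interval −1.06 to 0.35) with all libraries and −0.09 (−0.63 to 0.46) without replicate 5. Pax2 is also expressed in the optic stalk, and the eye genes Rax and Six6 were lower in WT Mb than in WT Fb, by −3.63 and −3.27. The part of eye tissue in the Pax2 level of Fb was not tested.

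Otx2 was the most abundant of the 9 in both tissues. It was at 63.3, 132, 117, 111, 171 and 104 FPKM in WT Mb replicates 1 to 6, and between 61.2 and 94.2 in WT Fb (median 74.9). Replicate 5, the lowest library for 7 of the other members, was the highest for Otx2, and only replicate 1 fell within the Fb range. The difference was 0.53 ± 0.19 (limma adjusted p = 0.120), and 0.41 ± 0.17 (limma adjusted p = 0.222) without replicate 5. Without WT Mb replicate 1 instead, it was 0.69 and passed the threshold (limma adjusted p = 0.00705). Gbx2, the hindbrain-side counterpart, was at 14.1, 5.90, 3.48, 11.6, 0.790 and 5.24 in WT Mb and between 0.00 and 1.10 in WT Fb (median 0.658). Replicates 1 and 4 were high here as for Pax8, and replicate 5 again lay within the Fb range, on about 4 fragments. The difference in Gbx2 was 2.01 ± 0.43 (limma adjusted p = 0.0102), and 2.37 ± 0.32 (limma adjusted p = 0.000475) without WT Mb replicate 5.

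Lmx1b was at 14.3, 13.1, 8.68, 19.0, 6.98 and 11 FPKM in WT Mb and between 1.81 and 4.40 in WT Fb (median 3.51). The groups did not overlap even with replicate 5, and the difference was 1.63 ± 0.23 (limma adjusted p = 0.00048), or 1.76 ± 0.22 without it. Its relative Lmx1a was at 1.36, 2.16, 3.43, 3.34, 5.95 and 2.46 in WT Mb and between 2.35 and 3.54 in WT Fb (median 2.59). The tissues overlapped, the difference was 0.06 (95% confidence interval −0.41 to 0.54), and here too replicate 5 was the highest Mb library. By mean FPKM the WT Mb order was Otx2 (116), En2 (47.4), En1 (38.8), Pax5 (17.4), Lmx1b (12.2), Pax8 (8.37), Gbx2 (6.85), Lmx1a (3.12) and Pax2 (2.63). Neighbours in this order had overlapping ranges throughout, although within each of the 6 libraries Otx2 was above En2 and En2 above En1. In WT Fb, Otx2 (77.8) was apart from all others, and Lmx1b (3.21), Pax2 (3.13) and Lmx1a (2.74) followed with overlapping ranges.

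**Figure D1:**
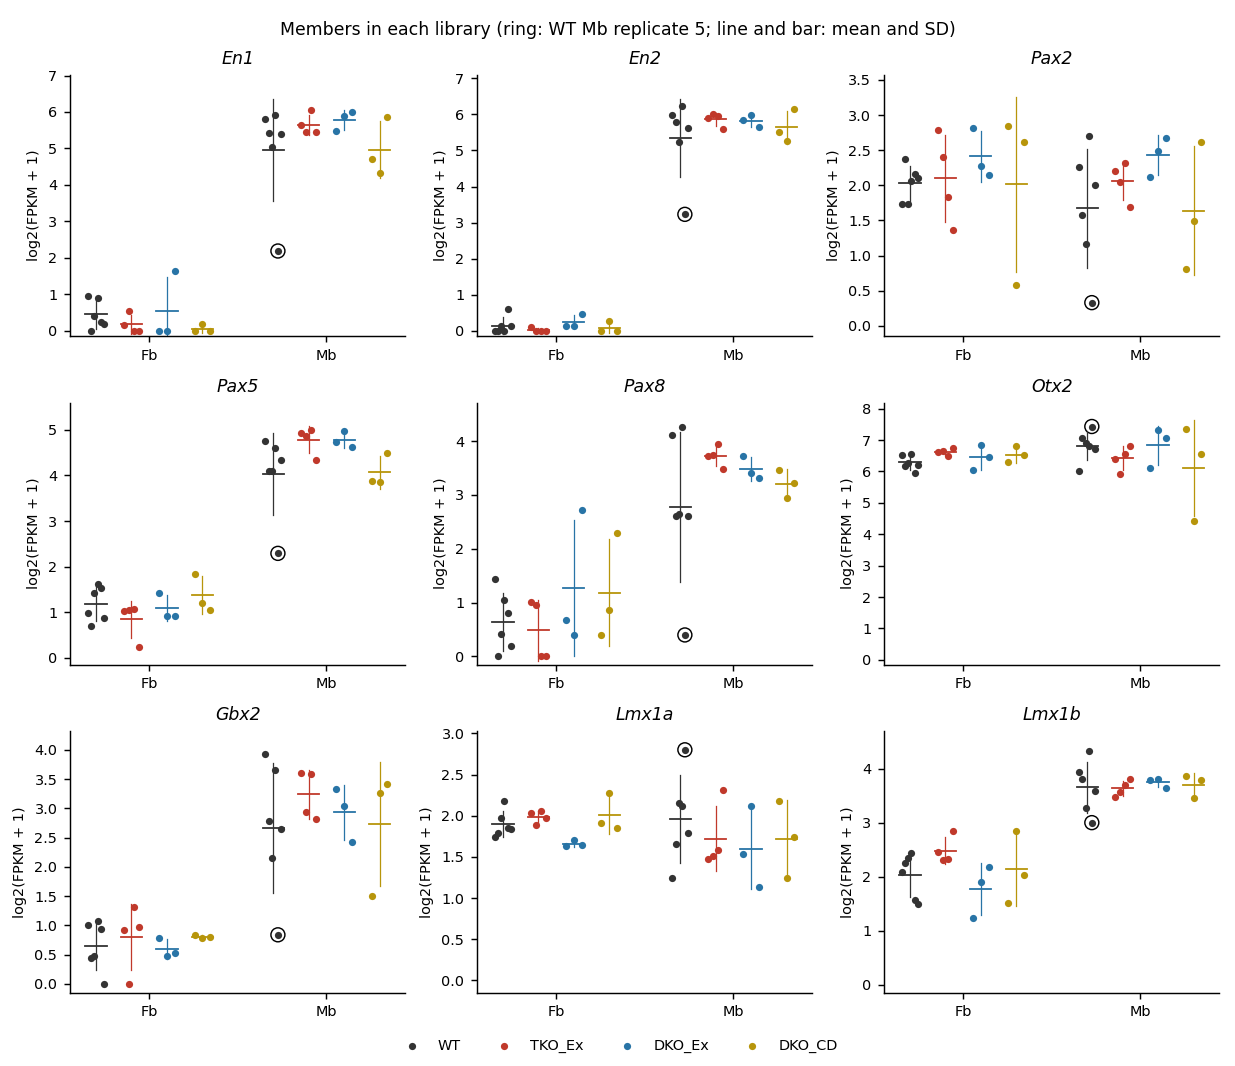
Level of each member, as log2(FPKM + 1), in each of the 32 libraries, by tissue (Fb, Mb) and genotype (colour). Points are libraries, short lines are means, bars are 1 SD and the ring marks WT Mb replicate 5, which is the lowest WT Mb library for 7 members and the highest for Otx2 and Lmx1a.

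WT Mb replicate 5 differed from the other WT Mb libraries in the isthmic signals and in forebrain-side genes as well. Fgf8 and Fgf17, the ligands of the organizer, were listed at 0 in it, against 6.23 to 24.6 FPKM for Fgf8 and 3.23 to 20.3 for Fgf17 in the other 5. Cnpy1, a regulator of Fgf signalling at the isthmus, was at 6.15 against 27.2 to 72.8. Pax6 was at 52.7, the highest of all 16 Mb libraries, where WT Fb ranged from 46.5 to 65.9, and Barhl2, of the posterior diencephalon, was at 6.61 against at most 1.27 in the other WT Mb libraries. The summed FPKM of the 14 isthmic signals and targets was 81.0 in it and between 172 and 337 in the other 5. In the same library Wnt1 and Irx1 were at 14 and 60.6, within or above the range of the other WT Mb libraries. WT Mb replicate 3 had the next highest Pax6 of the WT Mb libraries, 45.9, and the next lowest En1, En2, Gbx2 and Fgf8. How much tissue on either side of the midbrain each piece held was not tested.

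DKO_CD Mb replicate 1 and replicate 2 stood apart in other members. Replicate 1 had Gbx2 at 1.84 and Pax2 at 0.758 FPKM, against 8.58 and 9.72 for Gbx2 in the other DKO_CD Mb libraries, together with Fgf8 at 3.47, Pax6 at 40.0 and Barhl2 at 8.47. En2 was not low in it, at 44.4. Replicate 2 had Otx2 at 20.2, the lowest of all 32 libraries and below all 16 Fb libraries, where the other 2 were at 163 and 93.3. Hoxa2, a hindbrain gene named after its values were seen, was at 1.28 in replicate 2, its highest value in Mb. The summed FPKM of the 12 hindbrain genes ran from 2.27 to 15.8 in DKO_CD Mb (median 2.6). In WT Mb it ran from 1.36 to 8.52 (median 3.705). Of these 12 genes, 1 passed the filter on low values in DKO_CD Mb against WT Mb. The part of hindbrain tissue in replicate 2 was not tested. Hoxb1 was listed at 0 in every library.

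**Figure D2:**
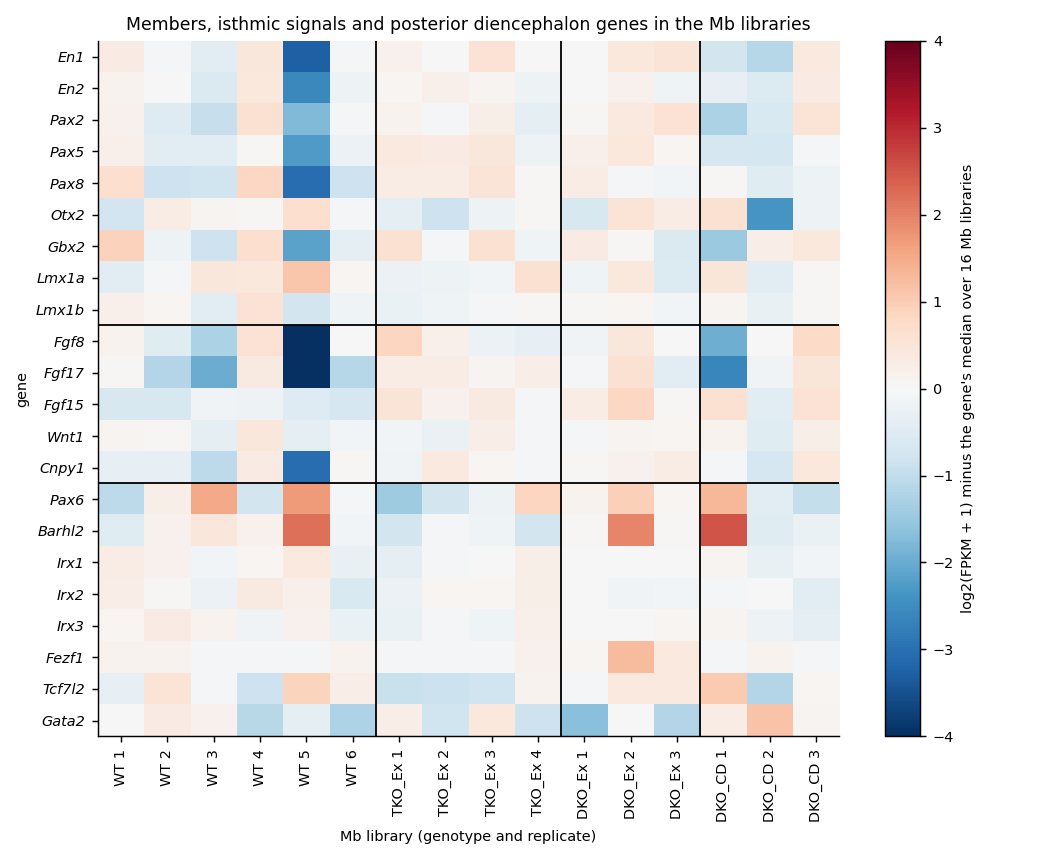
Members (top block), isthmic signals with Cnpy1 (middle) and posterior diencephalon genes (bottom) in the 16 Mb libraries, as log2(FPKM + 1) minus the median of the gene over these libraries. WT replicate 5 and DKO_CD replicate 1 combine low Fgf8 and Fgf17 with high Pax6 and Barhl2, and DKO_CD replicate 2 is low in Otx2.

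Other genes of the isthmus were taken from a list of its signals and targets. Of these 14 genes, 3 were higher in WT Mb than in WT Fb and none was lower, with a median difference of −0.01. The 3 were Cnpy1 (4.61 ± 0.46, limma adjusted p = 2.03e-05), Wnt1 (3.09 ± 0.23) and Fgf15 (0.81 ± 0.15, limma adjusted p = 0.00316). Without WT Mb replicate 5 there were 4, with Fgf18 added (1.58 ± 0.33, limma adjusted p = 0.0105), and the median was 0.35. In TKO_Ex 8 of the 14 were higher in Mb, among them Fgf17 (1.31 ± 0.19) and the feedback inhibitor Spry2 (1.20 ± 0.22). In DKO_Ex there were 3 and in DKO_CD 1, Cnpy1 (5.21 ± 0.34). Among all genes tested, 4.66% were called higher in WT, 1.54% in TKO_Ex, 1.66% in DKO_Ex and 0.224% in DKO_CD. Group sizes differed, so these counts do not rank the genotypes. None of the 14 was called when the difference between Mb and Fb in a mutant was compared with that in WT. Between WT Mb and WT Fb, Fgf8 did not pass the threshold (−0.57 ± 0.65, limma adjusted p = 0.698, and 0.08 ± 0.35 without WT Mb replicate 5). It was at 7.39 to 22.5 FPKM in WT Fb, and the forebrain has a source of Fgf8 at its anterior ridge. Of 10 dorsal midbrain and roof plate genes 8 were higher in WT Mb, among them Wnt1. Of 9 ventral midbrain genes tested, 5 were higher, among them the proneural gene Neurog2 (1.35 ± 0.21), and 1 was lower. Of 13 forebrain genes 12 were lower in WT Mb, among them Six3 (−4.80 ± 0.19), which checks the tissue labels from the other side. Without WT Mb replicate 5 the counts higher were 7 for the dorsal and 4 for the ventral genes, and 11 of the forebrain genes were lower.

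Of 8 posterior diencephalon genes 2 were lower and 3 higher in WT Mb, led by Fezf1 (−4.0 ± 0.13) and Irx1 (3.07 ± 0.19), and without WT Mb replicate 5 there were 3 of each. Early neuron genes were higher for 6 of 7 tested, among them Stmn2 and Pou4f1 (2.51 each), and eye genes were lower for all 5 tested. Surface ectoderm genes were lower for 5 of 6 tested, led by Epcam (−2.05) and Cdh1 (−1.50). Cranial mesenchyme genes were lower for 4 of 8, among them Prrx1 (−1.70) and Twist1 (−1.08), and higher for 1. Of the otic genes 2 of 3 tested were lower, among them Dlx5 (−3.27), and of the neural crest genes Tfap2a (−0.93) was lower among 5 tested. No gene passed the threshold among 7 endothelial genes, 6 genes of primitive red cells and the 2 hindbrain genes that passed the filter on low values. The part of these tissues in the members' differences was not tested.

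The same members separated Mb from Fb in the mutants. In TKO_Ex, 6 of 9 members were called, all higher in Mb, against 2.89% of 13477 genes (1.54% called higher). In DKO_Ex, 5 of 9 were called higher, against 2.58% of 13314 genes (1.66% higher), and in DKO_CD 3 of 9, against 0.507% of 13415 genes (0.224% higher). The groups did not overlap, with Mb higher, for 6 of 9 members in each mutant genotype, against 4.67% of genes in TKO_Ex, 12.6% in DKO_Ex and 7.34% in DKO_CD. With the library labelled TKO_Ex replicate 3 left out of both tissues, an alternative chosen after seeing the data, the TKO_Ex count was 5 of 9, as Lmx1b missed the threshold (1.08, limma adjusted p = 0.0637).

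En2 differed by 5.84 ± 0.14 in TKO_Ex (n = 4 and 4, limma adjusted p = 1.38e-07), 5.57 ± 0.17 in DKO_Ex (n = 3 and 3, limma adjusted p = 2.13e-05) and 5.55 ± 0.26 in DKO_CD (n = 3 and 3, limma adjusted p = 0.000302). En1 differed by 5.47 ± 0.19, 5.24 ± 0.44 and 4.90 ± 0.38 in the same order, and was called in each. Pax5 differed by 3.95 ± 0.24 in TKO_Ex, 3.69 ± 0.20 in DKO_Ex and 2.71 ± 0.28 in DKO_CD (limma adjusted p = 0.0119), called in each. The Pax5 call in DKO_CD was lost without DKO_CD Fb replicate 3 (2.55, limma adjusted p = 0.0663) or DKO_CD Mb replicate 3 (2.50, limma adjusted p = 0.0561).

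Pax8, Gbx2 and Lmx1b were called in fewer genotypes. Pax8 was called in TKO_Ex (3.24 ± 0.28) but not in DKO_Ex (2.21 ± 0.58, limma adjusted p = 0.124) or DKO_CD (2.03 ± 0.48, limma adjusted p = 0.185). One Fb library of each double knockout carried Pax8, at 5.60 FPKM in DKO_Ex Fb replicate 3 and 3.91 in DKO_CD Fb replicate 3, where the other 4 were at 0.321 to 0.813. Without DKO_Ex Fb replicate 3, Pax8 was called in DKO_Ex (2.94, limma adjusted p = 0.0069). DKO_Ex Fb replicate 3 also had the highest En1 of all Fb libraries, 2.09. Gbx2 was called in TKO_Ex (2.44 ± 0.32) and DKO_Ex (2.33 ± 0.29) and not in DKO_CD (1.92 ± 0.51, limma adjusted p = 0.242), where DKO_CD Mb replicate 1 was low and the call was made without it (2.53, limma adjusted p = 0.0235). Lmx1b was called in TKO_Ex (1.15 ± 0.16) and DKO_Ex (1.98 ± 0.26) and not in DKO_CD (1.57 ± 0.34, limma adjusted p = 0.148), where it was called without DKO_CD Fb replicate 2 (1.93, limma adjusted p = 0.0414). In DKO_Ex, Gbx2 lost the call without DKO_Ex Mb replicate 2 (limma adjusted p = 0.0516), and Lmx1b without DKO_Ex Mb replicate 1 or 2 (limma adjusted p = 0.0559 and 0.0557). Pax2, Otx2 and Lmx1a were called in none of the mutants, with differences of −0.43 to 0.38.

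**Figure D3:**
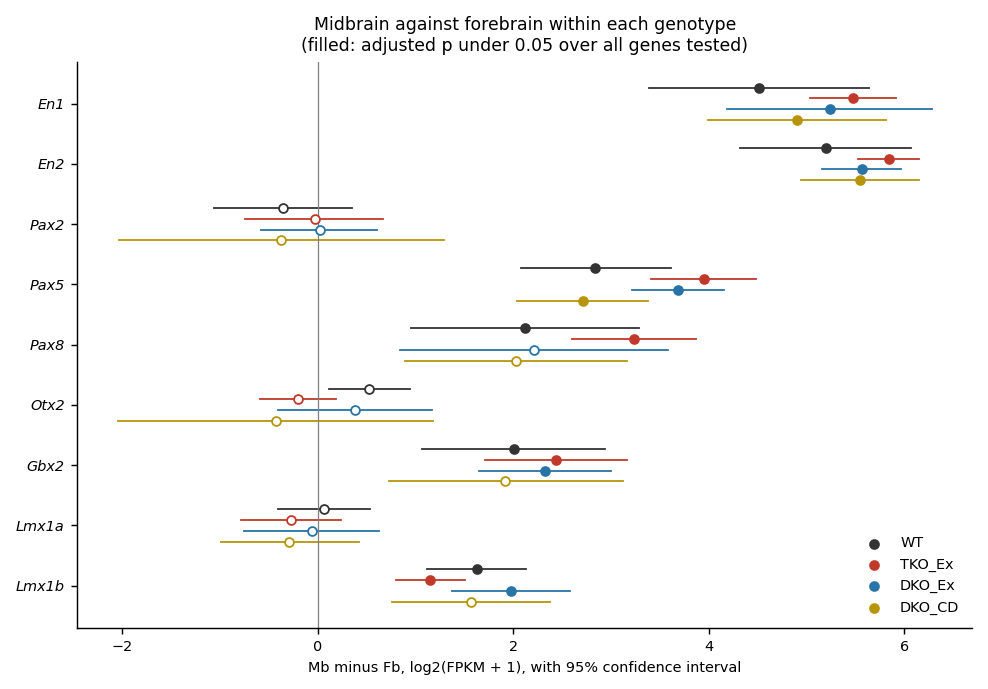
Difference between Mb and Fb for each member within each genotype, on the log2(FPKM + 1) scale, with 95% confidence intervals. Filled points passed the threshold. En1, En2 and Pax5 are filled in all 4 genotypes, and Pax2, Otx2 and Lmx1a in none.

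The differences between Mb and Fb were then compared between genotypes. None of the 9 members had a tissue difference that differed from that of WT at the threshold in TKO_Ex, DKO_Ex or DKO_CD (limma, interaction), against 0.0149%, 0% and 0.00746% of genes called. At an unadjusted p under 0.05 there were 2 members in TKO_Ex and 0 in the others, against 6.5%, 3.88% and 4.83% of genes. These were Pax5, whose difference was larger by 1.10 (95% confidence interval 0.06 to 2.15, limma adjusted p = 0.756), and Otx2, whose difference was smaller, by −0.73 (−1.33 to −0.13, limma adjusted p = 0.734). Without WT Mb replicate 5 they were 0.75 (0.09 to 1.42) and −0.61 (−1.16 to −0.05), again with adjusted p above the threshold.

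No member passed the threshold between mutant and WT midbrain. In TKO_Ex Mb against WT Mb 0 of 9 were called by limma and 0 had an unadjusted p under 0.05, against 0.0898% and 8.38% of 13361 genes. The counts were 0 and 0 in DKO_Ex (0.0903% and 5.46% of 13295 genes) and 0 and 0 in DKO_CD (0.0375% and 6.69% of 13344 genes). Every member overlapped between each mutant and WT in Mb, where 1.21%, 2.01% and 2.24% of genes lay wholly above WT in TKO_Ex, DKO_Ex and DKO_CD, and 0.524%, 0.993% and 1.14% wholly below. These 3 comparisons share the WT libraries. With WT Mb replicate 5 left out, 0 members were called in each of the 3.

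En1 in TKO_Ex Mb replicates 1 to 4 was at 49.0, 42.6, 65.5 and 43.0 FPKM, in DKO_Ex Mb replicates 1 to 3 at 43.4, 57.7 and 62.4, and in DKO_CD Mb at 25.4, 19.1 and 56.5. Against WT Mb, En1 in TKO_Ex differed by 0.69 (95% confidence interval −0.66 to 2.03), which narrowed to 0.13 (−0.29 to 0.56) without WT Mb replicate 5. In DKO_Ex it was 0.82 (−0.73 to 2.36), and 0.26 (−0.20 to 0.72) without that library. In DKO_CD it was 0.00 (−1.63 to 1.64), and −0.55 (−1.29 to 0.18) without that library, as 2 of the 3 DKO_CD libraries lay below the other 5 of WT. En2 in TKO_Ex Mb was at 58.6, 64.1, 60.5 and 47.6, in DKO_Ex Mb at 55.9, 62.4 and 49.0 and in DKO_CD Mb at 44.4, 37.6 and 69.6. Its differences from WT were between 0.29 and 0.52 in the 3 mutants, and between −0.13 and 0.10 without WT Mb replicate 5. For En2 the intervals without that library were −0.32 to 0.51 in TKO_Ex, −0.42 to 0.51 in DKO_Ex and −0.70 to 0.43 in DKO_CD.

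Pax5 in TKO_Ex Mb was at 29.7, 28.2, 30.8 and 19.2 FPKM, in DKO_Ex Mb at 25.7, 30.2 and 23.8 and in DKO_CD Mb at 13.6, 13.5 and 21.5, where WT Mb reached 26.0. In TKO_Ex, 3 of the 4 libraries were above every WT library. The difference was 0.76 (95% confidence interval −0.13 to 1.64, limma adjusted p = 0.661) in TKO_Ex and 0.75 (−0.25 to 1.75, limma adjusted p = 0.904) in DKO_Ex, and without WT Mb replicate 5 it was 0.41 (0.00 to 0.82) and 0.40 (0.00 to 0.80), limma adjusted p = 0.688 and 0.969. Between the double knockouts, every DKO_Ex Mb library was above every DKO_CD Mb library in Pax5, by 0.71 (0.23 to 1.18, unadjusted p = 0.0097 and adjusted p = 0.752 from limma). It was the 1 member of 9 without overlap there with DKO_Ex higher, against 6.46% of 13338 genes, and 0 members were called (0.045% of genes). The 1 member of 9 with an unadjusted p under 0.05 stands against 6.48% of genes.

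Pax8 in TKO_Ex Mb was at 12.2, 12.4, 14.4 and 10.2 FPKM, between the high and the low WT libraries, in DKO_Ex Mb at 12.2, 9.52 and 8.91 and in DKO_CD Mb at 10.1, 6.70 and 8.33. Its spread was smaller in each mutant (SD 1.71 to 1.77) than in WT (SD 7.17). The Pax8 difference from WT was 0.95 (95% confidence interval −0.39 to 2.30) in TKO_Ex, 0.71 (−0.85 to 2.26) in DKO_Ex and 0.44 (−1.12 to 2.01) in DKO_CD. It was 0.48, 0.23 and −0.03 without WT Mb replicate 5. Gbx2 in TKO_Ex Mb was at 11.2, 6.67, 11 and 6.04, in DKO_Ex Mb at 9.03, 7.22 and 4.34 and in DKO_CD Mb at 1.84, 8.58 and 9.72. Its differences from WT were 0.57, 0.26 and 0.06, and 0.20, −0.10 and −0.30 without WT Mb replicate 5. Otx2 was at 83.5, 59.8, 92.6 and 112 in TKO_Ex Mb, 68.1, 158 and 132 in DKO_Ex Mb and 163, 20.2 and 93.3 in DKO_CD Mb. The difference from WT was −0.39 (95% confidence interval −0.93 to 0.14) in TKO_Ex, 0.01 (−0.68 to 0.70) in DKO_Ex and −0.71 (−1.90 to 0.48) in DKO_CD. These became −0.27, 0.13 and −0.59 without WT Mb replicate 5. The DKO_CD value rested on replicate 2, and was 0.14 without it. Pax2, Lmx1a and Lmx1b differed from WT by −0.36 to 0.75 over the 3 mutants, and by −0.30 to 0.48 without WT Mb replicate 5. For Lmx1b, the interval of the difference was within −0.54 to 0.66 in all 3.

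**Figure D4:**
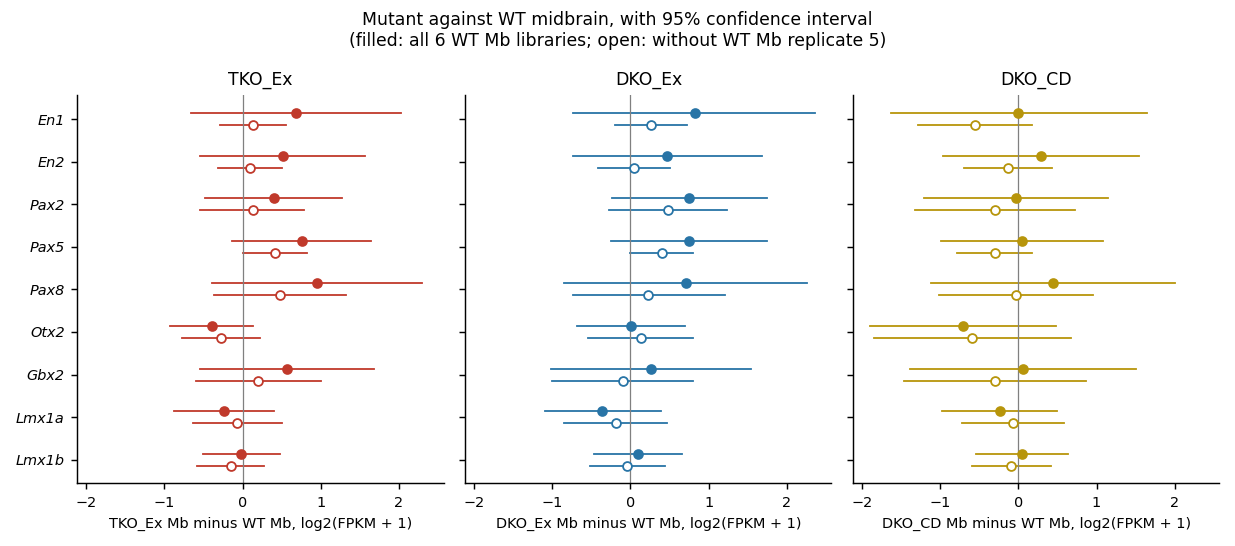
Difference of each member between mutant and WT Mb on the log2(FPKM + 1) scale with 95% confidence intervals, for all 6 WT Mb libraries (filled) and without WT Mb replicate 5 (open). All intervals with the 6 libraries hold 0, and most are narrower without replicate 5.

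In forebrain, En1, En2 and Gbx2 did not pass the filter on low values in any comparison of a mutant with WT, nor did Pax8 in TKO_Ex, which left 5 members tested in TKO_Ex and 6 in DKO_Ex and in DKO_CD. No member was called by limma (0.0603%, 0.0759% and 0.0378% of genes called). At an unadjusted p under 0.05, where 8.66%, 7.01% and 8.44% of genes lay, there was 1 member, Otx2 in TKO_Ex (0.34, 95% confidence interval 0.07 to 0.60, limma adjusted p = 0.457). It was at 96.7, 99.4, 89.0 and 105 FPKM in TKO_Ex Fb, and 3 of these 4 libraries were above the highest WT Fb library (94.2). Lmx1a in DKO_Ex Fb was at 2.10, 2.24 and 2.12, below every WT Fb library, by −0.24 (−0.59 to 0.12). That was 1 of 6 members without overlap with the mutant lower, against 2.25% of 13178 genes. Between the double knockouts in Fb, 0 of 6 members tested were called (0.00753% of genes), and the Lmx1a difference was −0.35 (−0.87 to 0.17). In the lists of isthmic, midbrain, forebrain and neighbouring tissue genes, 0 genes were called between any mutant and WT in either tissue by limma. The study, with DESeq2 on read counts, reported Fgf15 of the isthmic list as changed in exencephalic Mb. That test was not run here.

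The members were followed across the 16 Mb libraries against Fgf8, the organizer ligand. Fgf8 was named after its values were seen, its low value in WT Mb replicate 5 among them. That library was also low in most of these members, so the choice itself favours the relations. The permutations took no account of genotype. The p-values are therefore descriptive and give no support for a relation. Over the 9 relations, Pearson's r with Fgf8 was 0.87 for En1, 0.90 for En2, 0.89 for Pax2 and Pax5, 0.78 for Pax8 and 0.88 for Gbx2 (permutation test, 100000 resamples, two-sided, adjusted p = 9e-05 to 0.00948). Spearman's rho was 0.58, 0.79, 0.76, 0.62, 0.42 and 0.71 in the order En1, En2, Pax2, Pax5, Pax8 and Gbx2 (permutation adjusted p = 0.00378 to 0.119). The libraries farthest in Fgf8 were WT Mb replicate 5 and DKO_CD Mb replicate 1. Without both, r was 0.70 for En2, 0.76 for Pax2 and 0.63 for Gbx2, but 0.41 for En1, 0.52 for Pax5 and 0.49 for Pax8, so the last 3 relations rested largely on those libraries. With only WT Mb replicate 5 left out, r was 0.57 for En1, 0.66 for En2, 0.85 for Pax2, 0.65 for Pax5, 0.33 for Pax8 and 0.80 for Gbx2. On deviations from the mean of each genotype, with all 16 libraries kept, r was 0.86, 0.89, 0.90, 0.90, 0.74 and 0.89 for the same 6 genes. These values still include WT Mb replicate 5. Lmx1b had r = 0.58 and rho = 0.16, with r = 0.40 without the 2 libraries and 0.18 without WT Mb replicate 5 alone. Otx2 and Lmx1a ran the other way, with r = −0.40 and −0.65, −0.08 and −0.19 without the 2 libraries, and −0.27 and −0.36 without WT Mb replicate 5 alone. The libraries share depth and dissection, whose part was not tested.

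**Figure D5:**
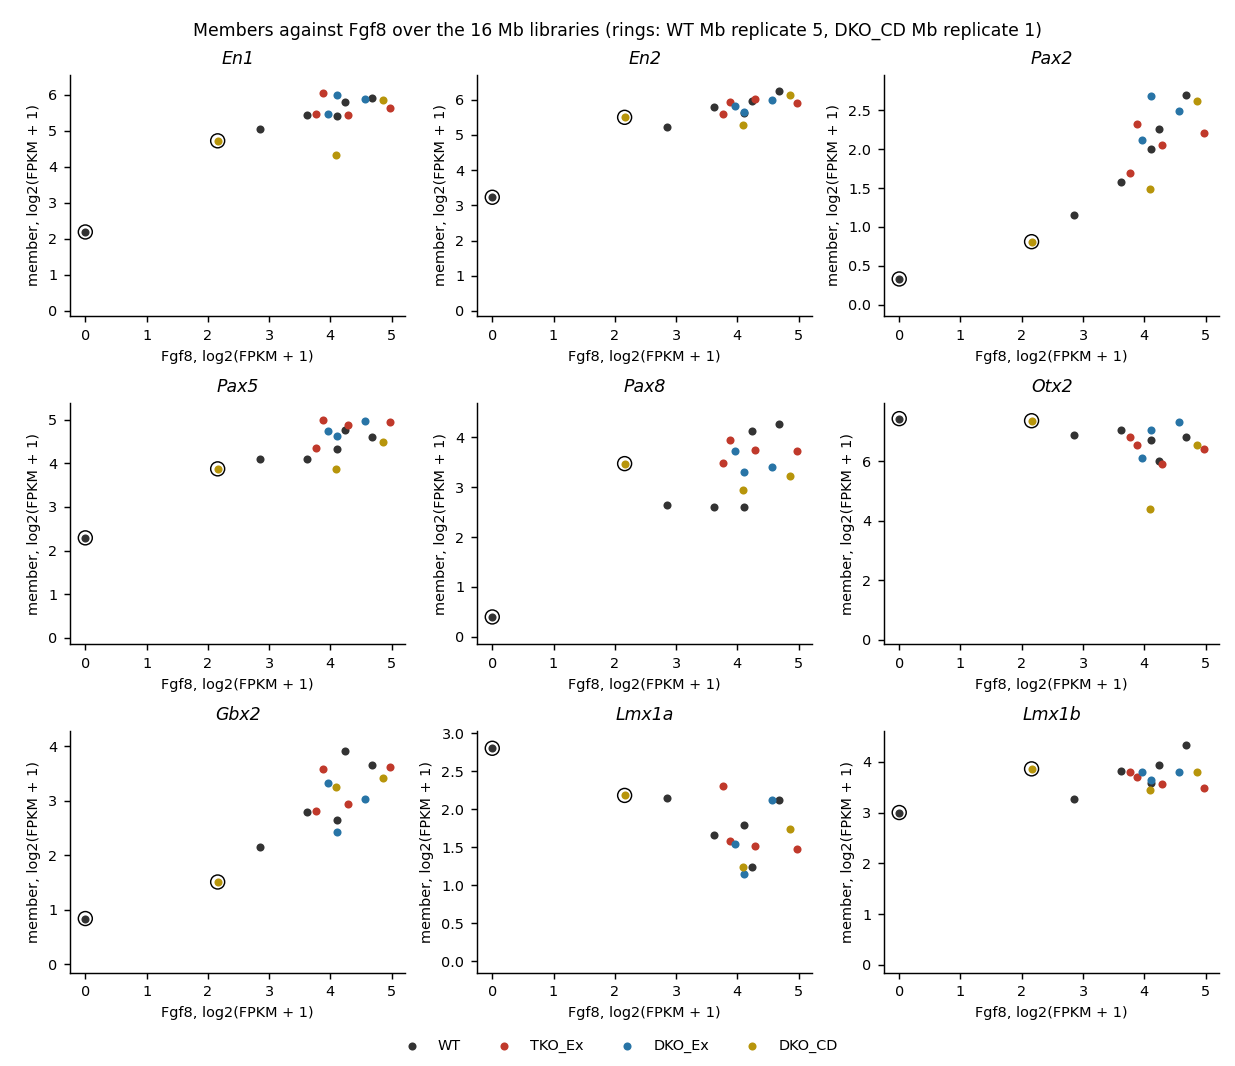
Each member against Fgf8 over the 16 Mb libraries, both as log2(FPKM + 1), with colour for genotype. Rings mark WT Mb replicate 5 (Fgf8 listed at 0) and DKO_CD Mb replicate 1, the 2 libraries farthest from the median of Fgf8. Among the other 14 libraries r is 0.76 for Pax2, 0.70 for En2 and 0.63 for Gbx2. It is 0.40 to 0.52 for En1, Pax5, Pax8 and Lmx1b, −0.08 for Otx2 and −0.19 for Lmx1a.

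Among the members themselves, r over the 16 Mb libraries was 0.95 for En1 with En2, 0.94 for En1 with Pax5 and 0.92 for En2 with Pax5, and −0.53 for Otx2 with Gbx2. Lmx1a with Otx2 had r = 0.63, and Lmx1a with Lmx1b had r = −0.20. Without WT Mb replicate 5, r was 0.77 for En1 with En2, 0.81 for En1 with Pax5, 0.72 for En2 with Pax5, −0.46 for Otx2 with Gbx2 and 0.59 for Lmx1a with Otx2, and Lmx1a with Lmx1b turned to 0.25. In the 16 Fb libraries Otx2 with Lmx1b had r = 0.70. These values describe the libraries, which share the depth of each.

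The genes most like each member over all 32 libraries were ranked by Pearson's r among the 13399 genes whose mean reached 1 FPKM. Cnpy1 was nearest to En1 (0.985), En2 (0.994) and Pax5 (0.976). Hes3, a repressor of the Hes family, and Efnb3, an ephrin ligand, followed for En1 (0.968 and 0.960) and En2 (0.975 and 0.974). For Pax5 the next were 5730488B01Rik (0.952), which overlaps it on the opposite strand, and Hes3 (0.951). Pax8 was nearest to Golm1 (0.920), Klhl14 (0.902) and Cnpy1 (0.894), and Gbx2 to Sp9 (0.931), D130058E05Rik (0.927), which overlaps Gbx2 on the opposite strand, and Klhl14 (0.922). Lmx1b was nearest to Wnt1 (0.955), Irx1 (0.946) and Nkd1 (0.941), an inhibitor of Wnt signalling. Otx2 was nearest to Zfp503 (0.809), its paralogue Otx1 (0.800) and C230038L03Rik (0.749). Pax2 and Lmx1a, whose tissues overlapped, had no near match, with Cnnm3 (0.671), Zfp521 (0.659) and Sharpin (0.655) for Pax2 and Ptpn13 (0.692), Grina (0.686) and Tmem184a (0.665) for Lmx1a.

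Over the 16 Mb libraries alone the order changed. Otx2 was then nearest to Tal2 (0.944), Dmbx1 (0.941) and Mab21l2 (0.931), and Gbx2 to Etv5 (0.937), Spred1 (0.913) and Fgf17 (0.903). En1 was nearest to 4930426D05Rik (0.954), and En2 to Cnpy1 (0.949), each followed by the Fgf feedback inhibitor Spry1 (0.924 and 0.932). How far these orders rest on single libraries, such as WT Mb replicate 5 or DKO_CD Mb replicate 2, was not tested. For En1 with En2, r was 0.95 with WT Mb replicate 5 and 0.77 without it.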

How the data were processed

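RNA from forebrain and midbrain of E9.5 mouse embryos was sequenced as directional libraries. Per the submitters' processing notes, the tools named were TopHat2, Cufflinks, HTSeq and DESeq2, with GRCm38 (mm10). The authors deposited 1 FPKM value per gene and library, made with Cufflinks. All 32 libraries were used. Groups of the 12 double knockout libraries follow the column heading where it and the sample record differ. Repeated identifiers (65) were summed, and 48218 of 48576 identifiers were named from GENCODE M21.

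Depth was estimated from 771 single-transcript genes of at least 4000 bp, in which 88.7% to 96.3% of low values were whole fragments within 0.15. This is an approximation, so no count test was run. Differences in log2(FPKM + 1) were tested with limma 3.58.1 (R 4.3.3), its variances moderated along a trend on the mean. Genes whose average reached 1 FPKM in the libraries fitted were tested, with Benjamini-Hochberg adjustment over all of them and a threshold of 0.05. Correlations used SciPy 1.17.1 and Python 3.11.15. The fits and the depth estimate were tested on simulated data. The members and lists were chosen with earlier results of these data known. The genes named are the 9 members, the 3 genes most like each, the 3 cadherins, any list gene called against WT, and the 2 list genes with the largest called tissue difference. Fgf8, Fgf17, Fgf15, Fgf18, Spry2, Pax6, Barhl2 and Hoxa2, and the genes most like a member over the Mb libraries alone, were named after their values were seen. Some genes that this rule selects are not reported here. The alternatives were other pseudocounts, no filter, no trend, all libraries in 1 fit, median-of-ratios scaling, a replicate block, groups by record, and each library left out.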

Additional observations from a re-analysis of the deposited data

Results flagged for a closer look

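Each of the 9 members was looked at in each of the 4 groups of 4 or more libraries, 36 sets in all. On the FPKM scale, 4 sets held 1 library far from the rest (Dixon's test), where chance gives about 1 set in 20. En2 in WT Fb replicate 5 was at 0.52 FPKM and the next library was at 0.113. En2 in TKO_Ex Fb replicate 1 was at 0.0889 FPKM, and the other 3 TKO_Ex Fb libraries were listed at 0, so that this value is about 1 fragment and any single fragment would have stood out. Pax5 in TKO_Ex Fb replicate 4 was at 0.174 FPKM, below the next value of 1.02. Lmx1a in TKO_Ex Mb replicate 4 was at 3.96 FPKM, above the next value of 1.99.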

How the results depend on the processing

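For the single members in WT Mb against WT Fb and in each mutant Mb against WT Mb, 630 values were computed under the alternatives, of which 575 kept their direction and their side of the threshold, 48 changed sign, 6 lost the call (all Pax8 in WT) and 1 gained it (Otx2 in WT). With groups by record the double knockouts change places, which gave 3 members called between Mb and Fb in DKO_Ex and 5 in DKO_CD. With all 32 libraries in 1 fit, 5 members were called in DKO_CD, Gbx2 and Lmx1b among them. Groups by record also turned DKO_Ex Mb against WT Mb for Pax2 (−0.03) and Otx2 (−0.71), and DKO_CD Mb against WT Mb for Pax2 (0.75) and Otx2 (0.01). Median-of-ratios scaling turned Otx2 in DKO_Ex (−0.02) and En1 in DKO_CD (−0.02). In DKO_CD, a pseudocount of 5 FPKM gave −0.06 for En1 and 0.00 for Pax5, and one of 0.1 FPKM gave 0.02 for Pax2. None of these values against WT passed the threshold, and the causes were not tested.

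The replicate numbers are not a pairing by the labels, which do not say whether same-numbered Mb and Fb libraries came from the same embryo. The main tests took them as independent. Same-numbered Mb and Fb libraries had correlations of deviations between 0.01 and 0.14 over 16 pairs, 13 of which were highest with their own number. Same-numbered mutant and WT libraries lay between −0.09 and 0.05 over 20 pairs, 0 of which were highest with their own number. A pairing of Mb and Fb by number is therefore possible, and the main tests between Mb and Fb did not use it. In fits against WT, the replicate block joined mutant and WT libraries by number alone. WT libraries without a same-numbered mutant, WT Mb replicate 5 among them, then added nothing to the difference. With that block, Gbx2 in DKO_Ex Mb against WT Mb was −0.03, and in DKO_CD En1 was −0.46, En2 −0.03, Pax5 −0.24, Gbx2 −0.23 and Lmx1a 0.04. Between Mb and Fb the block called 6 members in WT, 6 in TKO_Ex and 5 in DKO_Ex, as without it. In DKO_CD it called 2, without Pax5 (limma adjusted p = 0.0715). Over all genes it called 893 in WT (1102 without it).

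Leaving out 1 library gave 3 to 6 members called in DKO_Ex between Mb and Fb, 3 without DKO_Ex Mb replicate 2 and 6 without DKO_Ex Fb replicate 3. It gave 2 to 4 in DKO_CD, 2 without DKO_CD Fb or Mb replicate 3 and 4 without DKO_CD Fb replicate 2 or Mb replicate 1. It gave 5 to 7 in WT, 5 without WT Fb replicate 2, 3 or 6 or WT Mb replicate 3 or 4 and 7 without WT Mb replicate 1, and Pax8 there had a limma adjusted p of 0.0539 with no filter on low values. The Lmx1a difference between WT Mb and Fb ranged from −0.10 to 0.21. Against WT Mb, Lmx1b in TKO_Ex ranged from −0.15 to 0.12, and in DKO_Ex Otx2 ranged from −0.23 to 0.37, Gbx2 from −0.10 to 0.52 and Lmx1b from −0.04 to 0.23. In DKO_CD the ranges were −0.55 to 0.32 for En1, −0.13 to 0.48 for En2, −0.52 to 0.38 for Pax2, −0.30 to 0.19 for Pax5, −0.03 to 0.74 for Pax8, −1.33 to 0.14 for Otx2, −0.30 to 0.67 for Gbx2, −0.47 to 0.00 for Lmx1a and −0.09 to 0.18 for Lmx1b.

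Over all genes, the calls between Mb and Fb ranged over the alternatives from 163 to 663 in TKO_Ex (389 as reported), 68 to 542 in DKO_Ex (344) and 26 to 362 in DKO_CD (68). Against WT in Mb they ranged from 0 to 52 in TKO_Ex (12), 1 to 17 in DKO_Ex (12) and 1 to 12 in DKO_CD (5), and in Fb from 0 to 32 (8), 2 to 14 (10) and 2 to 15 (5). The low ends against WT were those of the replicate block, except in DKO_CD Fb. For the interactions the ranges were 0 to 5 (2), 0 to 1 (0) and 0 to 5 (1), and between the double knockouts 0 to 10 in Mb (6) and 0 to 4 in Fb (1).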
